A study of Mus musculus with 2 samples.

Results

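The annexin and S100 gene families were followed through the cells of the mouse ileal crypt, with 8 genes as members: the annexins Anxa1, Anxa2, Anxa3, Anxa4 and Anxa5, and the S100 genes S100a6, S100a10 and S100a11. The members were chosen by name, and all 8 are among the 31053 genes measured. Earlier results of these data were known at that choice, so counts of members beside all genes are a description only. Raw UMIs, the counted mRNA molecules, were summed for each of the 12 cell classes of the authors' cell table within each of 2 libraries, which gave 24 sums. A filter on low counts kept 10994 genes for testing, and 7 members passed it. Anxa1 did not pass and is described by its counts alone.

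Annexins are proteins that bind acidic phospholipids of membranes when calcium rises, and they take part in exocytosis, membrane repair and the organisation of the cell cortex. S100 proteins are small calcium-binding proteins with EF-hand domains that mostly act as dimers by docking onto partner proteins, several of which are annexins. S100A10 differs in that it no longer responds to calcium and binds tightly to annexin A2, with which it forms a complex at the plasma membrane. In the intestine the apical membrane, mucus granule release and shedding of cells are all settings in which these proteins have been studied.

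The libraries are replicate 1 and replicate 2 of a single group, labelled WT (wild type) ileum crypt Tom+. The data therefore allow comparisons between cell classes but none between treatments. All cells came from ileal crypts of Atoh1CreER-T2;R26RTom mice, in which the Atoh1 gene drives a tamoxifen-dependent recombinase that switches on a red reporter, and were sorted as live Tom+ cells. Tamoxifen was given as 2 doses of 1 mg/mL, 24 h apart, with harvest 12 h after the second. The age of the mice and the number of animals per library are not given in the sources used here. Since labelling needs the Atoh1 driver and is inherited, cells of every class are those that had recombined or descend from such a cell, not a random sample of the crypt.

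The class names are the authors' own. ISC is the class in which the stem cell list with Lgr5 and Olfm4 was highest, SEC-PRO that in which Atoh1, Dll1, Dll4 and Mki67 together were highest, and GP a class whose abbreviation the labels do not resolve. GOBLET-PRE and GOBLET form the mucus lineage, PANETH-PRE and PANETH the antimicrobial lineage, EEC-PRE, EC and NON-EC the hormone lineage, TUFT the chemosensory cells and ENTERO-PRO the absorptive progenitors. Each fixed marker list was highest in the class it was made for in both libraries, except that for EEC-PRE, which was highest in EC. The listed cells numbered 5305 in replicate 1 and 6257 in replicate 2, with 32656481 and 27014983 UMIs and a median of 5706 and 3503 UMIs per cell. The GOBLET class, which most results turn on, held only 42 and 84 cells. The libraries shared 12 barcodes among listed cells.

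Levels are given as CPM, the usual count-per-total measure, after scaling of each sum's total with TMM factors. These factors lay between 0.849 and 1.33 except in GOBLET, at 0.657 and 0.696, and in PANETH, at 0.229 and 0.256. Changes between classes are log2 values with standard errors (SE) from edgeR's quasi-likelihood test, fitted to all 24 sums with class and library as terms. Benjamini-Hochberg adjustment ran over all genes tested, with calls at 0.05. The libraries are the replicates, and the library term takes out differences between them that all classes share. The p-values therefore measure how far class differences vary between the 2 libraries, pooled over classes. This spread may in part be technical. Where no member is called in a direction below, edgeR gave 0 members there at an unadjusted p under 0.05 and DESeq2's Wald test called 0, apart from Anxa5 in PANETH against PANETH-PRE, named at that comparison.

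By GENCODE M21 on mm10, S100a11 (chr3:93520488-93526287, plus strand) and S100a10 (chr3:93555080-93564643, plus strand) lie 28.8 kb apart, with 1 gene model, Gm29950, between them. S100a6 (chr3:90612882-90624181, plus strand) sits on the same chromosome 2896 kb from S100a11. The annexins are dispersed: Anxa2 at chr9:69453620-69491795, Anxa3 at chr5:96793339-96845966, Anxa4 at chr6:86736840-86793584, Anxa5 at chr3:36448923-36475894 and Anxa1 at chr19:20373428-20390944. Whole gene bodies, exons and introns included, are spanned by these positions. Gm16144 is annotated antisense to Anxa2, 1500015L24Rik opposite Anxa1 and Gm44036 opposite Anxa4. No source used here gives the strand setting of the counting, so reads of these pairs may be shared.

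RefSeq promoter windows (GRCm38.p6) were found for 6 of the 8 members, Anxa3 and S100a10 having no entry. The sequences below are the 120 bases before the gene start of 3 members whose mRNA rose together towards GOBLET, with bases inside the GENCODE gene left out. Capitals mark TGANTCA, the letters bound by AP-1, the factor made of Fos and Jun proteins.
Anxa2 (chr9:69453500-69453619, plus strand): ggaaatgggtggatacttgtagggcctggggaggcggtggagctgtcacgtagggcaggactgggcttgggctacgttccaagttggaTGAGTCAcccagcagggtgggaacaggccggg
S100a11 (chr3:93520368-93520487, plus strand): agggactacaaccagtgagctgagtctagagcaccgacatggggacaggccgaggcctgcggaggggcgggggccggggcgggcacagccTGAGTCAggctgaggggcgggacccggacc
S100a6 (chr3:90612762-90612881, plus strand): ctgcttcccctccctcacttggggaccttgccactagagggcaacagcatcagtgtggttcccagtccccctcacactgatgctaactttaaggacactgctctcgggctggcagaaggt
In the 250 bases before the RefSeq start, searched on both strands, Anxa2 held 1 match to TGANTCA and S100a11 held 2, at 38 and 136 bases before the start. Anxa1, Anxa4, Anxa5 and S100a6 held none. Of 32851 promoter entries 6.75% held at least 1. GGGCGG, the GC box, occurred 3 times in Anxa2 and 3 times in S100a11, with none overlapping a TGANTCA match, and not in S100a6, against 32.7% of entries. TATAAA was present in Anxa1 and Anxa2 of these 6 members, against 12.4% of entries, and GGAATG, the TEAD letters, in Anxa1 alone, against 12.6%. For Anxa2 the last 63 bases before the RefSeq start lie inside the GENCODE gene and are left out of the printed stretch. Its GC boxes at 48 and 24 bases and its TATAAA at 17 bases before that start lie there. These matches describe letters in a window and do not show binding.

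The mature mucus cell class carried the most S100a6. S100a6 encodes calcyclin, a partner of annexins and of the calcyclin-binding protein. Its level was 10796 and 8440 CPM in GOBLET (replicate 1 and replicate 2), 1019 and 990 in GOBLET-PRE, 558 and 599 in ENTERO-PRO, 394 and 444 in GP and 308 and 294 in SEC-PRO. These 5 classes were ordered without overlap between neighbours. The other 7 classes lay lower and were not separated from their neighbours: 86.5 and 157 CPM in ISC, 95.5 and 180 in PANETH-PRE, 71.2 and 115 in PANETH, 63.6 and 113 in TUFT, 54.0 and 114 in EEC-PRE, 74.9 and 79.6 in NON-EC, and 6.08 and 84.9 in EC. Replicate 1 was lower than replicate 2 in all 7 of these, and its EC value rested on 1 UMI against 23 in replicate 2. The highest and lowest class means differed 211-fold.

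Anxa2 and S100a10, the genes of the membrane complex, shared the same upper classes. Anxa2 was at 1572 and 1306 CPM in GOBLET, 621 and 516 in ENTERO-PRO, 483 and 444 in GOBLET-PRE, 303 and 293 in GP, and in SEC-PRO 227 and 195. It then fell from 144 and 173 CPM in ISC and 147 and 148 in TUFT through 129 and 89.4 in PANETH-PRE, 105 and 100 in PANETH, 81.1 and 60.8 in NON-EC and 18.2 and 73.8 in EC to 23.6 and 32.0 in EEC-PRE. S100a10 was at 2106 and 1590 CPM in GOBLET, 1129 and 726 in ENTERO-PRO, 603 and 440 in GOBLET-PRE, 398 and 318 in GP, 376 and 288 in ISC, with SEC-PRO at 353 and 272. For both genes the upper 3 classes did not overlap, while GP, ISC and SEC-PRO did overlap for S100a10. S100a10 was lower in TUFT at 202 and 200 CPM, EEC-PRE at 155 and 114, PANETH at 133 and 130, PANETH-PRE at 116 and 121, NON-EC at 93.6 and 96.0 and EC at 18.2 and 118. The EC pair again split by library, with 3 UMIs in replicate 1 and 32 in replicate 2. Marker lists of other lineages split the same way in EC. The goblet list summed to an unscaled 2422 and 13519 CPM and the Paneth list to 8871 and 25735. Their part in the EC values of S100a6, Anxa2 and S100a10 was not tested.

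**Figure D1:**
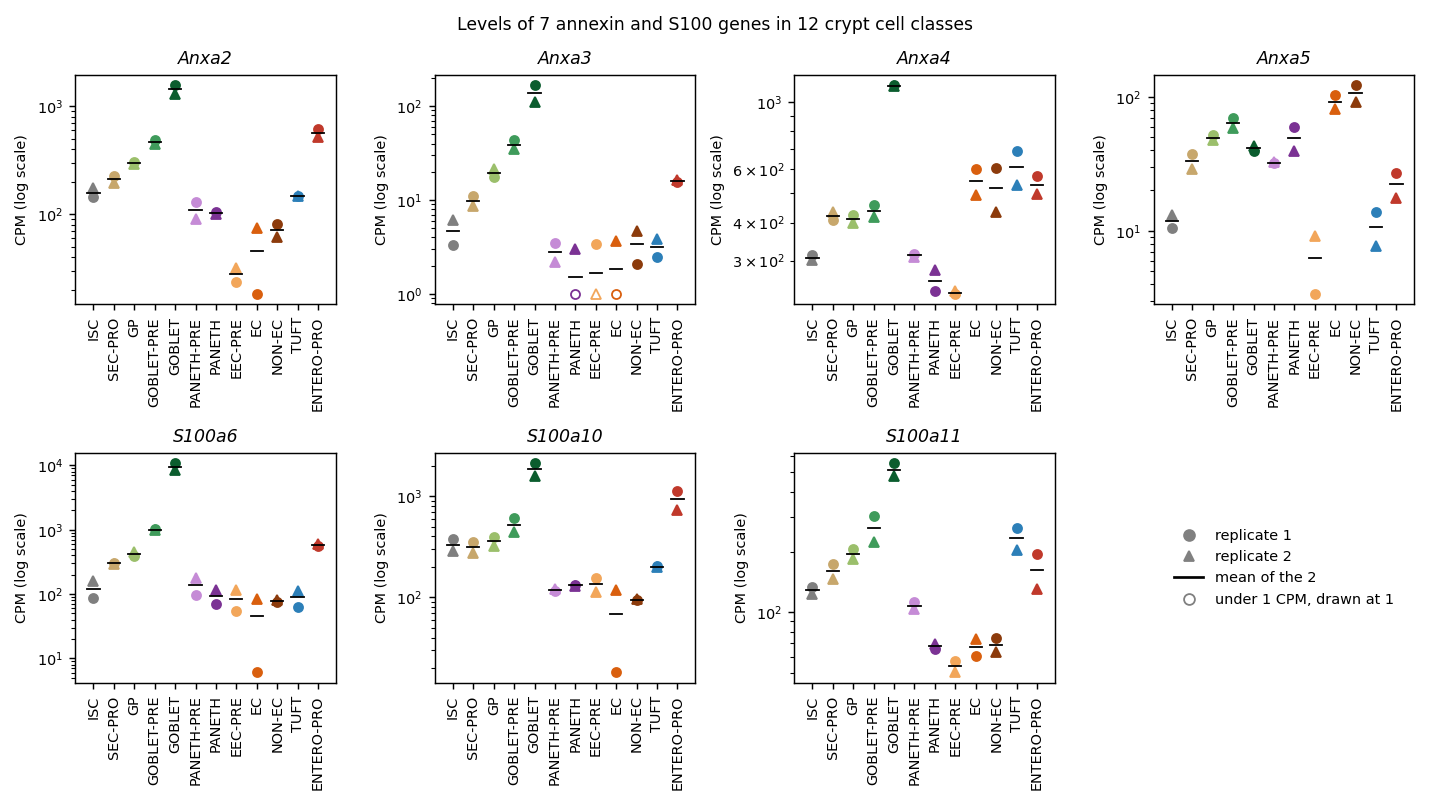
Level of each tested gene in CPM (log axis, a separate range per panel) in the 12 classes, with circles for replicate 1, triangles for replicate 2 and bars for their mean. GOBLET stands highest for every gene except Anxa5, which is highest in NON-EC, at 123 and 91.3 CPM.

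S100a11 and Anxa3 had their highest levels in the same class. S100a11, a partner of annexins at membranes, was at 554 and 476 CPM in GOBLET, 301 and 224 in GOBLET-PRE, 265 and 204 in TUFT, 206 and 185 in GP, 196 and 131 in ENTERO-PRO and 174 and 147 in SEC-PRO. Only GOBLET stood clear, since neighbours from GOBLET-PRE to SEC-PRO overlapped in this order. Its remaining levels were 134 and 123 CPM in ISC, 112 and 104 in PANETH-PRE, 74.9 and 63.2 in NON-EC, 65.8 and 69.8 in PANETH, 60.8 and 73.8 in EC and 57.4 and 50.2 in EEC-PRE. Anxa3, an annexin first studied in neutrophils and as a phospholipase inhibitor, was at 168 and 111 CPM in GOBLET, 43.5 and 34.6 in GOBLET-PRE, 17.5 and 21.7 in GP, 15.6 and 16.6 in ENTERO-PRO and 11.05 and 8.70 in SEC-PRO. It was at or below 6.13 CPM in the remaining 7 classes, on 13 and 59 UMIs in ISC and at most 5 per library in the others. The GOBLET values of Anxa3 themselves come from 17 and 18 UMIs.

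Anxa4 was the evenest of the 7 genes. Annexin A4 is abundant in secretory and absorptive epithelia and binds their inner membrane surfaces. Its level was 1137 and 1126 CPM in GOBLET, 690 and 531 in TUFT, 602 and 495 in EC, 569.5 and 498 in ENTERO-PRO, 605 and 435 in NON-EC, 457 and 417 in GOBLET-PRE, 409 and 434 in SEC-PRO and 424 and 399 in GP. Apart from GOBLET, each of these overlapped its neighbour. The lowest were PANETH-PRE at 316 and 309 CPM, ISC at 313 and 302, PANETH at 237 and 278 and EEC-PRE at 233 and 238, and the highest and lowest class means differed 4.81-fold.

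Anxa5 had a pattern of its own. Annexin A5 binds exposed phosphatidylserine and is used as a probe for dying cells. It was at 123 and 91.3 CPM in NON-EC, 103.4 and 81.2 in EC, 69.6 and 58.8 in GOBLET-PRE, 51.6 and 47.8 in GP, 59.4 and 39.5 in PANETH and 39.5 and 43.3 in GOBLET. NON-EC and EC overlapped and lay above all other classes. Below them were SEC-PRO at 37.4 and 29.2 CPM, PANETH-PRE at 31.8 and 32.4, ENTERO-PRO at 26.9 and 17.7, ISC at 10.4 and 13.2, TUFT at 13.7 and 7.69 and EEC-PRE at 3.38 and 9.13. EEC-PRE held only 1 and 2 UMIs, so the 18.5-fold ratio of NON-EC to EEC-PRE in pooled UMIs had an exact 95% interval of 6.16 to 91.4, which covers counting error only.

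Anxa1 was hardly detected in the listed cells. Annexin A1 acts on formyl peptide receptors and is known for limiting inflammation. It had 7 UMIs in all: 4 and 1 in TUFT, 1 in SEC-PRO and 1 in ISC. No thinned GOBLET-PRE cell held one, 0 of 2254 and 0 of 1289, which allows shares of up to 0.133% and 0.233%. The same limit was 7.32% and 3.95% in GOBLET. These limits are on cells with a UMI, not on cells expressing the gene.

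As a scale for these differences, the SD of the class means on the log2 scale was 2.27 for S100a6, 1.97 for Anxa3, 1.63 for Anxa2, 1.47 for S100a10, 1.25 for Anxa5, 0.969 for S100a11 and 0.619 for Anxa4. The median over 3827 genes, those whose log2 CPM averaged 5 or more, was 0.526. GOBLET was the highest class for 21.0% of these genes and for 6 of the 7 members.

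RNA outside cells may add to the low levels, by a share that was not measured. In barcodes with at most 50 UMIs the unscaled levels were 444 and 318 CPM for S100a6, 313 and 208 for Anxa2, 425 and 262 for S100a10, 449 and 379 for Anxa4, 188 and 129 for S100a11, 64.5 and 36.9 for Anxa5 and 16.6 and 12.9 for Anxa3. Unscaled levels in both libraries were below this pool in 7 classes for S100a6, 6 for Anxa2, 8 for Anxa3, 3 for Anxa4, 8 for Anxa5 and 5 each for S100a10 and S100a11. Across these members the pool stood at 0.647 to 1.23 times the level in listed cells. A class below it may thus only be below that average, and the pool is not a floor. With the share of free RNA in each class unknown, the order of the low classes is not read as expression. GOBLET was above the pool for every member tested except Anxa5, whose unscaled 25.9 and 30.1 CPM lay below it.

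Between SEC-PRO and ISC, the step at which secretory progenitors are set apart from stem cells, 6 of the 7 members were higher and none lower, against 19.2% of all genes tested higher and 15.3% lower. Anxa5 rose by 1.40 (SE 0.17, adjusted p = 3.11e-11, edgeR), a 2.64-fold difference, and S100a6 rose by 1.30 (SE 0.28, adjusted p = 0.00285). Anxa3 rose by 0.90 (SE 0.27, adjusted p = 0.00488), Anxa4 by 0.46, Anxa2 by 0.39 and S100a11 by 0.31. The differences of Anxa5, S100a6 and Anxa3 were larger in replicate 1 than in replicate 2, at 1.77 and 1.10 for Anxa5, 1.82 and 0.90 for S100a6 and 1.53 and 0.46 for Anxa3. The ISC sums differed too, with the stem cell list at an unscaled 2632 and 1418 CPM and the goblet list at 12825 and 21671. The part of this in the split between libraries was not tested. Unscaled levels of Anxa5 and Anxa3 lay below the free RNA pool in both classes and both libraries, and those of S100a6 did so in ISC. S100a10 was the exception, at -0.08 (SE 0.16, adjusted p = 0.736). The median change was 0.46 over the members and 0.02 over all genes. Of the calls over all genes 55.6% were higher, against 42.4% with TMM factors from all genes and 39.2% with DESeq2 size factors. Genes of the dissociation and stress list, such as Fos and Egr1, also moved at this step: 14 of 16 were higher and none lower by edgeR (0 at an unadjusted p under 0.05, 1 by DESeq2's Wald test), and their part in the members' rise was not tested. Without the library term 3 members were called, and 3 by DESeq2's Wald test.

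From SEC-PRO to GP 4 members were higher and none lower, against 4.38% and 12.8% of all genes. Anxa3 rose by 0.95 (SE 0.23, adjusted p = 0.0011), Anxa5 by 0.57 (SE 0.15, adjusted p = 0.00212), Anxa2 by 0.50 (SE 0.11, adjusted p = 0.000395) and S100a11 by 0.29 (SE 0.10, adjusted p = 0.0459), by edgeR. S100a6 was at 0.47 (SE 0.27), S100a10 at 0.20 and Anxa4 at -0.04, and none of these passed. The members' median was 0.47 against -0.07 over all genes, of whose calls 25.6% were higher, or 43.9% with all-gene TMM factors and 35.6% with DESeq2 size factors. Only 1 member, Anxa3, was called without the library term.

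From GP to GOBLET-PRE 6 of 7 members were higher and none lower, against 4.9% and 4.48% of all genes. S100a6 rose by 1.27 (SE 0.26, adjusted p = 0.00857), a 2.41-fold difference, and Anxa3 by 1.03 (SE 0.17, adjusted p = 5.91e-06), by edgeR. Anxa2 rose by 0.64, S100a10 by 0.54, S100a11 by 0.42 and Anxa5 by 0.37, the last with an adjusted p of 0.0478 from edgeR. Anxa4 did not pass, with 0.11 and 0.06 in the libraries. The median was 0.54 over the members and -0.02 over all genes, of whose calls 52.2% were higher, or 63.4% with all-gene TMM factors. The stress list moved here too, with 9 of 16 genes higher and 1 lower, and its part in the result was not tested. Without the library term 1 member, Anxa3, was called, and after removal of a free RNA share 3 were.

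Between GOBLET and GOBLET-PRE the same number of members, 6, were higher and none lower, against 8.21% and 3.9% of all genes. Each of the 6 had a larger fitted change here than at any earlier step from ISC, though the difference between steps was not tested. S100a6 rose by 3.26 (SE 0.28, adjusted p = 3.96e-06, edgeR), a 9.56-fold difference, with 3.40 and 3.09 in the separate libraries. S100a10 rose 3.54-fold (log2 1.82, SE 0.19), Anxa3 3.39-fold (1.76, SE 0.33) and Anxa2 3.08-fold (1.62, SE 0.13). Anxa4, which was not called in either of the preceding steps, rose 2.60-fold (1.38, SE 0.13, adjusted p = 3.63e-15, edgeR). S100a11 rose 1.97-fold (0.98, SE 0.16). Anxa5 did not pass, at -0.59 (SE 0.42, adjusted p = 0.445), on 4 and 7 UMIs in GOBLET. The members' median was 1.62 against -0.08 over all genes.

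The choice of scaling moved the median of all genes most at this step. Over all genes 67.8% of calls were higher, against 39.2% with TMM factors from all genes, which moved the median of all genes from -0.08 to -0.43, and 55.3% with DESeq2 size factors, which moved it to -0.25. Under each of these 6 members were still called and all 6 were higher. Here the stress list went the other way, with 10 of 16 genes lower and none higher, among them Egr1 at -2.06 and Fosb at -2.04. Markers of other cells were scarce in GOBLET: all 8 stromal, 4 endothelial and 4 red blood cell markers were at 0, and the immune list summed to an unscaled 188 and 112 CPM through 2 of 8 genes, with Ptprc, Cd3e and Cd79a at 0. Markers of villus cells summed to an unscaled 13 and 51.6 CPM there, with 4 of 6 detected, against 11.5 and 14.9 in GOBLET-PRE. The ENTERO-PRO list, 6 of its 7 genes detected, summed to an unscaled 1797 and 1302 CPM in GOBLET against 1078 and 730 in GOBLET-PRE. The part of these lists and of the stress genes in the members' rise was not tested.

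**Figure D2:**
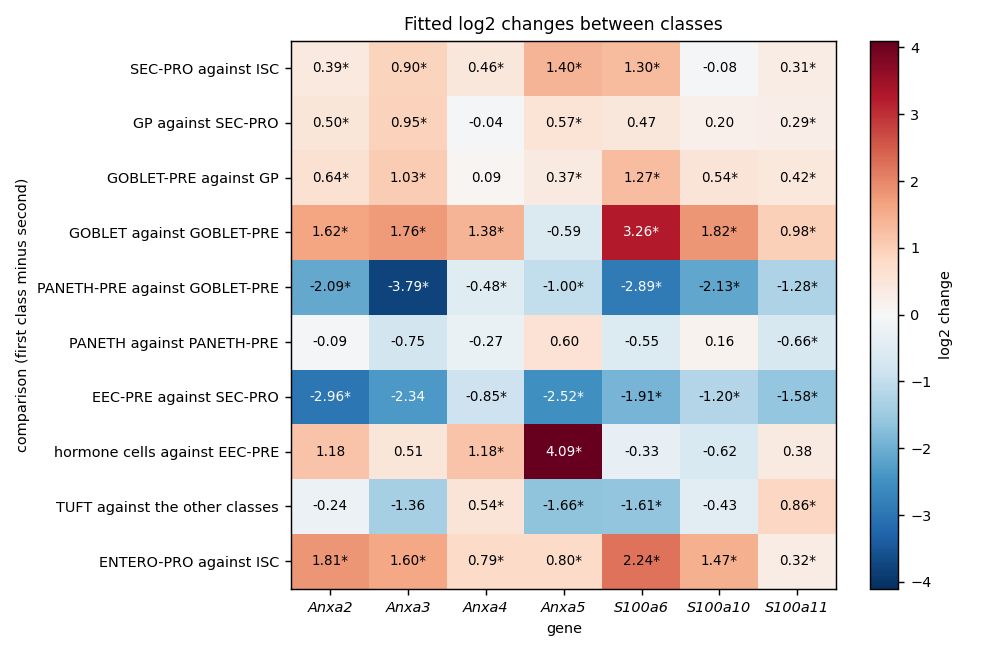
Fitted log2 change of each of 7 genes (columns) in 10 comparisons of classes (rows, first class minus second), red for higher and blue for lower, with an asterisk at an adjusted p under 0.05 (edgeR). The row for GOBLET against GOBLET-PRE is red for all genes but Anxa5, and that for PANETH-PRE against GOBLET-PRE is blue throughout.

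At equal depth the rise of S100a6 was visible cell by cell. Each cell was thinned to 2000 UMIs, which left 41 and 76 GOBLET cells, and all of them held an S100a6 UMI, an exact (Clopper-Pearson) 95% interval reaching down to 91.4% and 95.3%. The share was 78.1% and 80.9% in GOBLET-PRE, 55.7% and 57.5% in GP, 48.2% and 44.7% in SEC-PRO, and ISC had 12.2% and 22.6%. In ENTERO-PRO, whose level was above that of GP, the share was 54.8% and 54.6% of 93 and 152 thinned cells. It was close to that of GP, and the small gap was not tested. Median UMIs of S100a6 per thinned cell were 13 and 11 in GOBLET, 2 and 2 in GOBLET-PRE, 1 and 1 in GP and 0 and 0 in SEC-PRO. Before thinning every GOBLET cell was positive too, and the shares were 92.7% and 88.1% in GOBLET-PRE and 23.5% and 34.4% in ISC. In PANETH, whose unscaled S100a6 level of 16.3 and 29.3 CPM lay below the free RNA pool, 2.76% and 6.98% of thinned cells had a UMI, and 24.8% and 27.0% before thinning. The scaled level was 71.2 and 115 CPM there, against 86.5 and 157 in ISC. Thinning counts all UMIs, and the Paneth marker list took an unscaled 486712 and 534153 CPM in PANETH. Thinned shares in PANETH are therefore not comparable with those of other classes in the way that scaled levels are. Median depths before thinning were 23375 and 12874 UMIs in PANETH and 3202 and 2764 in GOBLET.

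Anxa2 was found in 85.4% and 84.2% of thinned GOBLET cells, 74.2% and 63.2% of ENTERO-PRO cells and 63.8% and 62.5% of GOBLET-PRE cells. In PANETH the share was 4.15% and 4.13%, or 33.5% and 26.5% before thinning, and the limit of thinning in PANETH holds here too. The PANETH-PRE share was 23.0% and 12.0%, while scaled Anxa2 levels were close, at 105 and 100 CPM in PANETH and 129 and 89.4 in PANETH-PRE. Anxa5 reached 27.7% and 17.9% in NON-EC and 26.5% and 12.8% in EC, against 2.44% and 9.21% in GOBLET. The EC shares rest on 34 and 47 cells.

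**Figure D3:**
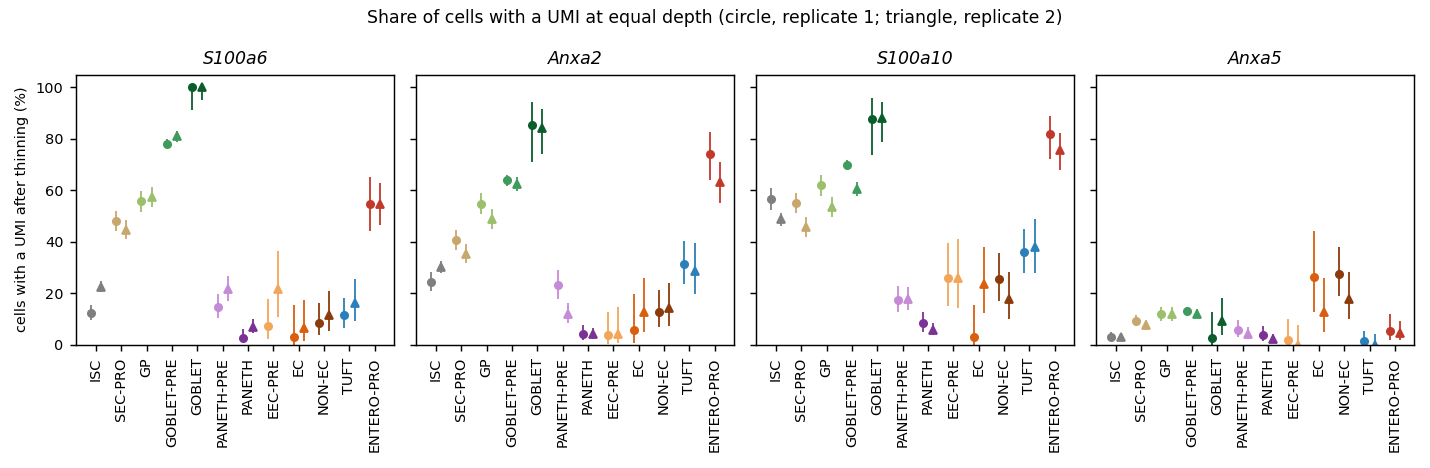
Share of cells with at least 1 UMI (percent) after thinning every cell to 2000 UMIs, for 4 genes in 12 classes, circles for replicate 1, triangles for replicate 2 and bars for exact 95% binomial intervals. S100a6 is found in 12.2% and 22.6% of ISC cells and in all GOBLET cells, while Anxa5 does not exceed 27.7% in any class. Thinning counts all UMIs, so the shares in PANETH are not comparable with its scaled levels.

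Members were lower in the Paneth precursors than in the goblet precursors. PANETH-PRE against GOBLET-PRE, the comparison of the precursors of the antimicrobial and mucus lineages, had all 7 members lower, against 10.0% of all genes lower and 14.1% higher. Anxa3 was 13.8-fold lower (log2 -3.79, SE 0.36), S100a6 7.42-fold lower (-2.89, SE 0.31), S100a10 4.37-fold lower (-2.13, SE 0.19) and Anxa2 4.25-fold lower (-2.09, SE 0.13), with adjusted p of at most 1.94e-05 by edgeR. The S100a6 difference was -3.40 in replicate 1 and -2.45 in replicate 2. S100a11 was 2.42-fold, Anxa5 2.00-fold and Anxa4 1.40-fold lower. Unscaled levels of all 7 in PANETH-PRE lay below the free RNA pool in both libraries. The members' median was -2.09 against 0.09 over all genes, of whose calls 58.4% were higher, or 45.7% with all-gene TMM factors. The count was 7 under every alternative except the fit without the library term, where Anxa4 dropped out.

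From PANETH-PRE to PANETH a single member was called. S100a11 was lower (log2 -0.66, SE 0.16, adjusted p = 0.00298, edgeR), 1 of 7 members, against 2.79% of all genes lower and 5.31% higher. The other 6 did not pass, from Anxa5 at 0.60 (SE 0.22, unadjusted p = 0.00773, adjusted p = 0.0774, edgeR) to Anxa3 at -0.75 (SE 0.92), which had 0 and 4 UMIs in PANETH. Unscaled, S100a11 was at 15.1 and 17.8 CPM in PANETH (65.8 and 69.8 scaled), below the free RNA pool at 188 and 129 CPM. The call was lost after thinning and without the library term. Of the calls over all genes 65.5% were higher, or 55.3% with all-gene TMM factors.

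Most members were lower at entry into the hormone lineage, and Anxa4 and Anxa5 were higher again in its mature classes. In EEC-PRE against SEC-PRO 6 of 7 members were lower and none higher, against 10.6% and 12.7% of all genes. Anxa2 was 7.78-fold lower (log2 -2.96, SE 0.31, adjusted p = 5.19e-12, edgeR) and Anxa5 5.75-fold lower (-2.52, SE 0.62), the latter at -3.20 in replicate 1 and -1.59 in replicate 2. For Anxa5 the pooled UMIs gave SEC-PRO a ratio of 5.81 (exact 95% interval 1.97 to 28.3). S100a6 was 3.76-fold lower (-1.91, SE 0.54), at -2.49 and -1.36 in the libraries. S100a11 was 2.99-fold, S100a10 2.31-fold and Anxa4 1.80-fold lower. Anxa3, with 1 and 0 UMIs in EEC-PRE, had -2.34 (SE 1.15, adjusted p = 0.142, edgeR). Unscaled levels of all 7 in EEC-PRE lay below the free RNA pool in both libraries. Of the calls over all genes 54.4% were higher, or 43.4% with all-gene TMM factors.

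Against EEC-PRE, the mean of EC and NON-EC had 2 members higher and none lower, against 5.87% and 4.12% of all genes. Anxa5 rose 17.0-fold (log2 4.09, SE 0.53, adjusted p = 3.12e-09, edgeR), from 3 UMIs over both EEC-PRE sums against 137 in the hormone classes (pooled ratio 17.5, exact 95% interval 5.87 to 86.0), and its change was 4.77 in replicate 1 and 3.13 in replicate 2. Anxa4 rose 2.27-fold (1.18, SE 0.15). Anxa2 had as large a fitted difference, 1.18 (SE 0.42), but did not pass (adjusted p = 0.0621, edgeR). The median of all genes was itself shifted by 0.18, and of the calls over all genes 58.7% were higher, or 45.5% with all-gene TMM factors and 43.6% with DESeq2 size factors. The dissociation list had 6 of 16 genes higher and none lower at this step, and its part was not tested. Of the stromal markers only Vim was detected in EC, at an unscaled 1065 and 729 CPM, with the other 7 at 0.

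In TUFT, set against the mean of the other 11 classes, S100a11 was higher by 0.86 (SE 0.11, adjusted p = 1.37e-09, edgeR) and Anxa4 by 0.54 (SE 0.08, adjusted p = 2.4e-07, edgeR). Anxa5 and S100a6 were lower, by log2 changes of -1.66 (SE 0.34) and -1.61 (SE 0.38). The 2 higher and 2 lower members compare with 12.8% and 7.91% of all genes, whose median stood at 0.12. Anxa2 at -0.24, S100a10 at -0.43 and Anxa3 at -1.36 did not pass. Unscaled levels of Anxa5 and S100a6 in TUFT lay below the free RNA pool in both libraries. The stress list had 7 of 16 genes lower and 1 higher in TUFT, and its part was not tested.

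The rise was also found in ENTERO-PRO. In ENTERO-PRO against ISC all 7 tested members were higher, against 18.6% of all genes higher and 18.4% lower. S100a6 rose 4.71-fold (log2 2.24, SE 0.30), Anxa2 3.52-fold (1.81, SE 0.12), Anxa3 3.03-fold (1.60, SE 0.40) and S100a10 2.77-fold (1.47, SE 0.16), with adjusted p of at most 0.00082 by edgeR. Anxa5 and Anxa4 rose 1.74-fold and 1.73-fold. The log2 difference was 2.68 in replicate 1 and 1.93 in replicate 2 for S100a6, and 1.30 and 0.40 for Anxa5, whose unscaled levels lay below the free RNA pool in both classes. S100a11 was at the threshold, at 0.32 (SE 0.13, adjusted p = 0.0491, edgeR), and lost the call under all 7 alternatives. The median was 1.47 over the members and -0.07 over all genes. Villus markers summed to an unscaled 1537 and 1101 CPM in ENTERO-PRO and 69.1 and 62.5 in ISC, with all 6 detected in both. The stress list had 7 of 16 genes higher and 1 lower. The goblet marker list was higher too, at an unscaled 61869 and 68786 CPM in ENTERO-PRO and 12825 and 21671 in ISC. The part of these lists in the members' rise was not tested, so the rise is not read as an absorptive trait.

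Other genes of both families were followed where they were measurable. Of 14 further S100 genes 4 were tested, S100a1, S100a13, S100a14 and S100a16. All 4 were higher in SEC-PRO against ISC, in GOBLET-PRE against GP and in ENTERO-PRO against ISC, beside 19.2%, 4.9% and 18.6% of all genes. All 4 were lower in EEC-PRE against SEC-PRO, beside 10.6% of all genes. S100a13 rose by 1.25 (SE 0.11) from GP to GOBLET-PRE, from 74.5 to 176 CPM. It had 3 UMIs over both EEC-PRE sums and 124 in the hormone classes, a pooled ratio of 15.8 (exact 95% interval 5.30 to 77.9, counting error only). None of the 4 was called from GOBLET-PRE to GOBLET, where their median was 0.35, 2 of them (S100a1 and S100a13) were higher at an unadjusted p under 0.05 by edgeR, and DESeq2's Wald test called 0. S100a4, S100a8, S100a9 and S100b, genes of stromal, myeloid or glial cells, had no UMI in any listed cell.

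Of 7 further annexins 3 were tested. Anxa6 was at 134 and 66.5 CPM in EC and 104 and 46.8 in NON-EC, and at most 13.7 elsewhere. Anxa11 was higher in TUFT by 1.17 (SE 0.16), at 116 and 84.6 CPM. Anxa7 was highest in PANETH, at 87.7 and 71.3 CPM. None of the 3 passed between GOBLET-PRE and GOBLET by edgeR or DESeq2's Wald test, and 0 had an unadjusted p under 0.05.

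The partners of these proteins were followed with a list of 18 membrane repair and annexin-binding genes, 16 of them tested. From GOBLET-PRE to GOBLET 5 were higher and none lower by edgeR (0 at an unadjusted p under 0.05, 0 by DESeq2's Wald test), beside 8.21% and 3.9% of all genes. From ISC to ENTERO-PRO 9 were higher and 2 lower, beside 18.6% and 18.4%. Ahnak, a giant scaffold protein held at the membrane by annexin A2 and S100A10, rose by 3.07 (SE 0.26, adjusted p = 1.36e-08, edgeR) in GOBLET, from 75.8 to 647 CPM, and by 2.62 (SE 0.22) in ENTERO-PRO. It was lower by a log2 change of -2.34 (SE 0.31) in PANETH-PRE. Cacybp, the calcyclin-binding protein, was lower at 4 of these steps, with -0.60 (SE 0.11) in SEC-PRO against ISC, -0.47 (SE 0.12) in GP against SEC-PRO, -0.40 (SE 0.12) in GOBLET-PRE against GP and -1.06 (SE 0.16) in ENTERO-PRO against ISC. In TUFT against the other classes Cacybp was higher, by 0.66 (SE 0.14). Myof, a membrane repair protein of the dysferlin family, rose by 1.86 (SE 0.19) from ISC to SEC-PRO and by 0.89 (SE 0.21) from PANETH-PRE to PANETH. Of the list, 5 genes were higher and 3 lower in SEC-PRO against ISC, beside 19.2% and 15.3% of all genes. TUFT had the same counts, beside 12.8% and 7.91%.

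Receptors and the plasminogen system, a list of 9 genes to which annexin A1 and the annexin A2 complex are linked, had 3 tested. None passed from GOBLET-PRE to GOBLET by edgeR (1, Eno1, at an unadjusted p under 0.05) or by DESeq2's Wald test, and all 3 were lower in PANETH-PRE against GOBLET-PRE, beside 10.0% of all genes, among them Eno1 by -0.98 (SE 0.16) and Plgrkt, a plasminogen receptor, by -0.47 (SE 0.16). A list of 20 genes of the fetal-like and injury response, in which Anxa1 is often counted, had 8 tested. Of these 5 were higher in SEC-PRO against ISC, 4 in GOBLET-PRE against GP, 3 in GOBLET against GOBLET-PRE and 5 in ENTERO-PRO against ISC, beside 19.2%, 4.9%, 8.21% and 18.6% of all genes. GP against SEC-PRO had 0 called by edgeR, with 3 higher at an unadjusted p under 0.05 and 1 by DESeq2's Wald test. PANETH-PRE against GOBLET-PRE had 3 lower and 1 higher, beside 10.0% and 14.1% of all genes. EEC-PRE against SEC-PRO had 2 lower and 1 higher, beside 10.6% and 12.7%. TUFT had 2 lower and 0 higher, beside 7.91% and 12.8%. In GOBLET 1 was lower, Cyr61, beside 3.9% of all genes, with 1 UMI there and 1366 in GOBLET-PRE, whose level was higher by a pooled ratio of 17.3 (exact 95% interval 3.11 to 686, counting error only).

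Over the 24 sums, log2 levels of Anxa2, Anxa3, S100a6, S100a10 and S100a11 were correlated with each other at Pearson r of 0.83 to 0.93. Anxa4 reached 0.46 to 0.69 with these 5, and Anxa5 lay between -0.15 and 0.33 with all 6 others. The sums share libraries and the GOBLET sums pull all of these values, so they are a description only. The genes most like S100a6 among 3827 were Fcgbp (0.99), AW112010 (0.98) and Clca1 (0.96), of which Fcgbp and Clca1 encode mucus proteins. Those most like Anxa2 were Pitpna, Clec2h and AA467197 (0.94 to 0.95), and those most like S100a10 were AA467197 (0.97), Gapdh (0.96) and Phgr1 (0.95). Lgals2, Smim15 and Clca1 were nearest to Anxa3, Actr3, Tsc22d4 and Rb1 to Anxa4, and Myo1a, Entpd8 and Klf3 to S100a11. Anxa5 had its nearest genes at lower values, Naip2 (0.84), Map7 (0.83) and Arhgef38 (0.81).

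**Figure D4:**
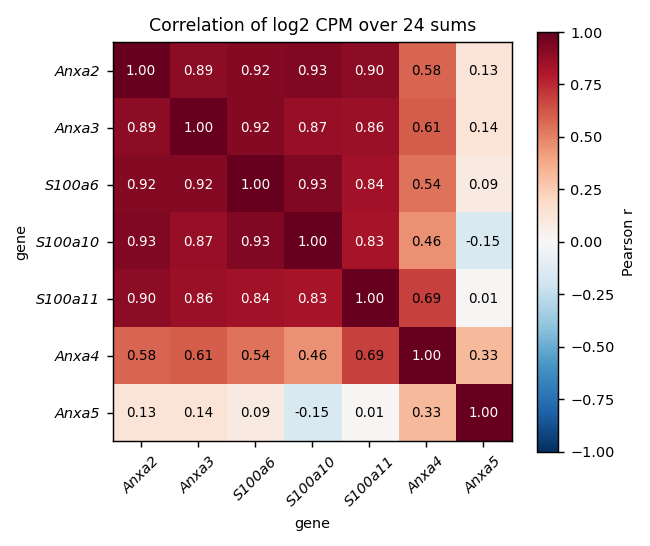
Pearson correlation of log2 CPM over the 24 sums for each pair of 7 genes, red for positive and blue for negative. Anxa2, Anxa3, S100a6, S100a10 and S100a11 form a block at 0.83 to 0.93, and Anxa5 stays within -0.15 to 0.33 of every other gene.

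Within a class the members were only weakly related from cell to cell. In the 6 classes with at least 200 cells per library, Spearman's rho between thinned counts of 2 members ran from -0.09 to 0.27 over 240 gene pairs by class and library, with a median of 0.04. Counts this sparse give no finding within a class.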

How the data were processed

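Tom+ cells of 2 mouse ileum crypt libraries were profiled with 10x Genomics 3' chemistry. The submitters' processing notes name mm10, STAR and Cell Ranger 3.0.2, and the authors' deposited matrices hold raw counts per gene and barcode without a cell filter, per the file headers. The authors' deposited cell table gives each kept cell its class, UMI and gene counts and the percent of mitochondrial UMIs, without saying how classes were assigned. Its UMI totals equalled those of the matrices in 77.6% and 73.9% of cells.

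UMIs were summed per class and library and analysed in R 4.3.3 with edgeR 4.0.16, with TMM factors from genes of average log2 CPM of at least 6, the filterByExpr function, class and library as terms, and 11 residual degrees of freedom. The library term is a block by design, since same-numbered sums come from the same library. The median biological coefficient of variation was 0.0641. Correlations used log2 CPM with a prior count of 2. Shares of cells were taken after thinning to 2000 UMIs, which left out 375 and 901 shallower cells, and have exact Clopper-Pearson 95% intervals that, like the limit of 3 counts allowed by a count of 0, cover counting error only. No doublet caller was run here, and no source used here says whether the authors removed doublets. The model was run on simulated counts with a spread common to all genes, no library differences and altered genes in SEC-PRO only. That run does not bear on how the members vary between libraries.

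The members and gene lists were chosen with earlier results of these data known. The 8 members were always named. From each related list, at most the 2 largest rises and 2 largest falls among called genes (log2 CPM averaging 5 or more, libraries of like sign) were named, and for each member the 3 genes with the highest correlation. Anxa6, S100a1 to S100a16 and other genes given only as levels were named after their values were seen. Alternatives were TMM factors from all genes, DESeq2 1.42.0 size factors or its Wald test, no filter, no library term, thinned cells, removal of free RNA as 5% of UMIs, each library alone and equal weight per cell.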

Additional observations from a re-analysis of the deposited data

Results flagged for a closer look

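Anxa1 had more signal outside the listed cells than in them. Barcodes with at most 50 UMIs held 19 Anxa1 UMIs in replicate 1 and 11 in replicate 2, which is 15.7 and 9.43 CPM. The listed cells held 5 and 2 UMIs, or 0.153 and 0.0740 CPM. Unlisted barcodes with over 600 genes held 7 and 5 UMIs, or 0.328 and 0.935 CPM. The same barcodes of at most 50 UMIs held 7 and 8 of 8 stromal markers, summing to 790 and 582 CPM, most of it Dcn with 592 and 403 UMIs, against 7.38 and 7.59 CPM in listed cells, where Dcn had 1 and 3 UMIs. For the other members the level in these barcodes was from 0.647 to 1.23 times that in listed cells. The part of stromal RNA in the Anxa1 signal was not tested.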

How the results depend on the processing

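Of 49 calls of a member in a comparison, none turned under any alternative and the number kept was 47 with TMM factors from all genes, 46 with DESeq2 size factors, 46 without the filter, 42 with DESeq2's Wald test, 42 with thinned cells, 40 with free RNA removed and 35 without the replicate block. Each library alone and equal weight per cell kept the direction of all 49. Without the replicate block the members called fell to 3 in SEC-PRO against ISC, 1 in GP against SEC-PRO, 1 in GOBLET-PRE against GP and 0 in PANETH against PANETH-PRE. The Wald test called 3 in SEC-PRO against ISC. Thinned cells gave 0, and free RNA removal 2, in PANETH against PANETH-PRE, and free RNA removal gave 3 in GOBLET-PRE against GP. The cause of these changes was not tested. Anxa4 in GP against SEC-PRO, at -0.04 and not called, took the other sign with all-gene TMM factors (0.066), DESeq2 size factors (0.019) and the Wald test (0.019), and S100a10 in PANETH against PANETH-PRE, not called, did with free RNA removed (-0.43). Precision is limited by the 42 and 84 GOBLET cells and by members with few UMIs.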
